A study of Mus musculus with 11 samples.

Results

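The genes described here are the 3 TGF-beta ligands (Tgfb1, Tgfb2 and Tgfb3) and 7 genes that respond to, or restrain, BMP and TGF-beta signalling (Id1, Id2, Id3, Smad6, Smad7, Tgif1 and Bambi). They were found by gene symbol in the count table, which lists 55385 genes, and all 10 were present and passed the filter on low counts that left 15416 genes for testing. Expression was measured by RNA sequencing of mouse gastrocnemius, a calf muscle, dissected after a fast of 36 h that all groups shared. ZEB1 KO muscles (3 libraries) came from mice with floxed ZEB1 alleles (ZEB1 flx/flx) that also carried HSACre, a Cre recombinase under the skeletal actin promoter, which is active in myofibres. ZEB1 control muscles (2 libraries, numbered 2 and 3) were ZEB1 flx/flx. ZEB2 KO muscles (3 libraries) were ZEB2 flx/flx; HSACre, and ZEB2 control muscles (3 libraries) were ZEB2 flx/flx. Each library pooled RNA from 2 mice, so the spread between libraries is a spread between pools, and no group carried HSACre without floxed alleles. Loss of a ZEB gene and presence of Cre therefore cannot be told apart. Age is not given in the sources used here.

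TGF-beta ligands are secreted in a latent complex, released by integrins and proteases, and bind a receptor pair that phosphorylates SMAD2 and SMAD3. BMPs use related receptors that phosphorylate SMAD1, SMAD5 and SMAD9, and both branches share SMAD4. In skeletal muscle, BMP signalling is known to sustain muscle mass, whereas myostatin, activins and TGF-beta restrain growth. ZEB1 and ZEB2 are zinc-finger repressors that bind E-box sequences, and both proteins are known to interact with SMADs.

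Libraries held 27286288 to 46259639 counts. Levels are given as CPM, the usual count scaled to the library total, here with TMM factors. Zeb1 was at 28.4, 28.6 and 30.4 CPM in ZEB1 KO libraries, against 41.2 and 51.1 CPM in ZEB1 control libraries. Zeb2 was at 18.3, 14.4 and 17.7 CPM in ZEB2 KO libraries, against 24.1, 23.1 and 25.8 CPM in ZEB2 control libraries. Every KO library was below every control library for its targeted gene, but much of each gene's RNA was still counted. Whole muscle holds other cells, and exons that Cre leaves in place are counted with the gene. Their part in the remaining Zeb1 and Zeb2 RNA was not tested. The 10 myofibre markers summed to between 111357 and 149181 CPM over the 11 libraries, as the muscle label implies, and no marker of endothelium, fibroblasts, macrophages, smooth muscle and pericytes or satellite cells was at 0 in any library. In such bulk RNA, fewer cells of a type and less RNA per cell cannot be told apart. Y-linked genes summed to 216, 256 and 378 CPM in ZEB2 KO libraries and 118, 250 and 0 CPM in ZEB2 control libraries, and to 0, 0 and 210 CPM in ZEB1 KO libraries and 0 and 163 CPM in ZEB1 control libraries, so the pools differed in the sex of their mice.

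Levels of different genes were compared per length, as FPKM, which divides CPM by the length of a gene's merged exons in kilobases. Id3 had the highest median over the 11 libraries at 8.53 FPKM, followed by Id1 at 6.97, Tgfb3 at 6.81, Tgif1 at 3.94, Tgfb2 at 1.71, Smad7 at 1.22, Id2 at 1.00, Tgfb1 at 0.806, Smad6 at 0.782 and Bambi at 0.266 FPKM. Id1 and Tgfb3 were next to each other in this order and were not ordered the same way in every library, Id1 being higher in 7 of 11. Only the last neighbours, Smad6 and Bambi, had ranges that did not overlap. Tgfb3 was the predominant TGF-beta ligand transcript, and Bambi, a transmembrane pseudoreceptor without a kinase domain that dampens TGF-beta family signalling, was the least abundant of the 10. Bambi rested on as few as 37 counts in a library, where counting error alone gives a coefficient of variation of 16.4%, whereas Tgif1 reached 1670 counts.

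The 10 genes also differed in how much they varied between libraries of the same group. Tgif1 had a within-group SD of 0.55 on the log2 scale and Tgfb2 one of 0.47, at percentiles 83.0 and 76.3 of all genes tested, where the median gene had 0.29. Tgfb3 had a within-group SD of 0.13, at percentile 9.75. Over the 11 libraries the highest CPM was 4.76 times the lowest for Tgif1 and 4.49 times for Tgfb2, against 1.46 times for Tgfb3.

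Over all genes, no gene passed an adjusted p of 0.05 in either knockout comparison by edgeR's quasi-likelihood test with Benjamini-Hochberg adjustment, which was the main test. By DESeq2, 21 genes passed between ZEB1 KO and ZEB1 control muscles and 2532 between ZEB2 KO and ZEB2 control muscles. The numbers of genes with an unadjusted edgeR p under 0.05 were 499 and 5113 in the same order. The ZEB2 comparison thus had a broad shift across the transcriptome, which is the background for the 10 genes.

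Between ZEB2 KO and ZEB2 control muscles, 9 of the 10 genes had a lower level in the KO (background 53.4%) and Tgif1 had a higher one (background 46.6%). Their median log2 fold change was -0.35, beside -0.047 over all genes tested. None passed the edgeR test (background 0%), 2 passed by DESeq2 (background 18.6%), and 6 had an unadjusted edgeR p under 0.05 (background 33.2%). In 5 of the 10 the KO and control libraries did not overlap (background 43.4%), with Tgif1 higher (background 21.3%) and Tgfb2, Tgfb3, Id2 and Id3 lower in the KO (background 22.1%). The share of non-overlapping genes was near that of all genes. Between ZEB1 KO and ZEB1 control muscles, 4 genes were higher (background 51.2%) and 6 lower (background 48.7%). Their median log2 fold change was -0.084, beside 0.0069 over all genes. None passed by edgeR (background 0%) or DESeq2 (background 0.113%), Id2 alone had an unadjusted edgeR p under 0.05 (background 3.24%), and Id2 and Bambi did not overlap between groups (background 13.9%). Both were lower in the KO (background 6.69%), and no gene was higher without overlap (background 7.19%).

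**Figure D1:**
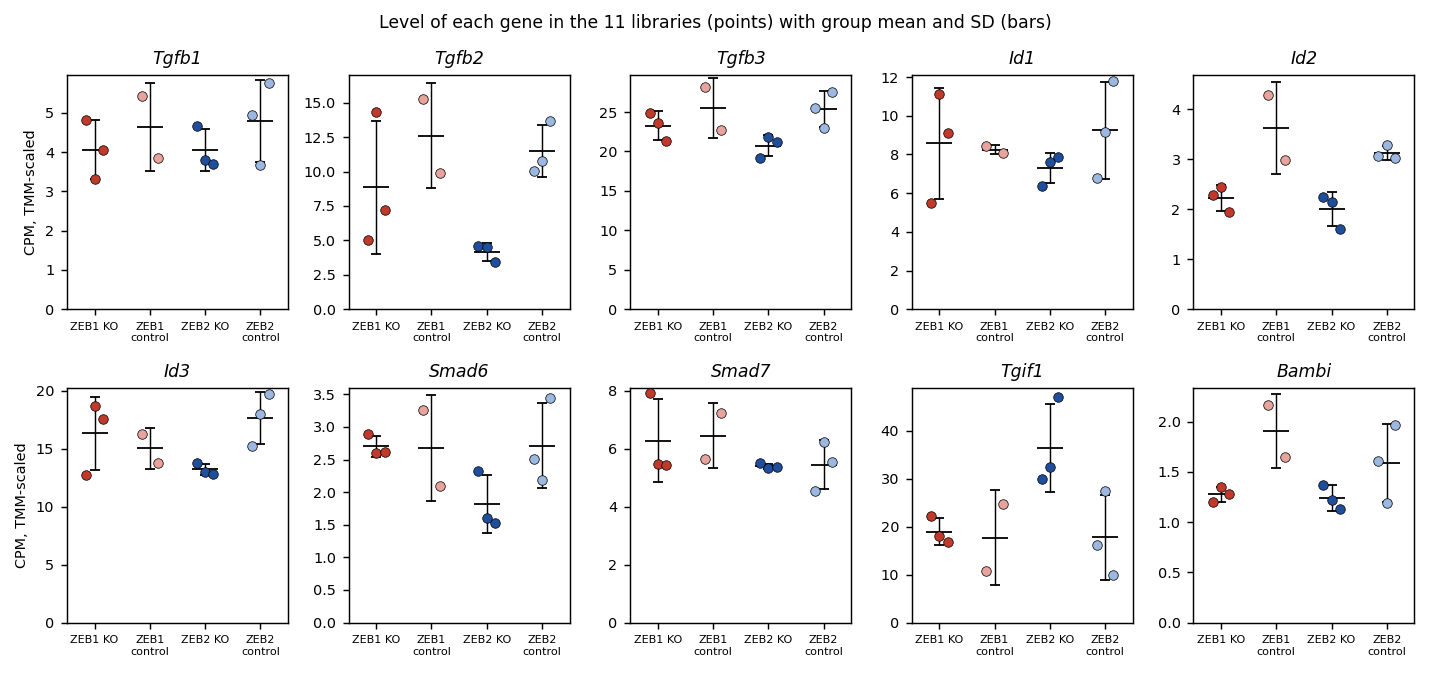
Level of each of the 10 genes in CPM (y axis, from 0) in each library (points), by group, with the group mean (horizontal line) and SD (bars; n = 3, and n = 2 for ZEB1 control). Tgfb2 was between 3.41 and 4.57 CPM in the 3 ZEB2 KO libraries and between 10.02 and 13.6 CPM in the 3 ZEB2 control libraries.

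Tgfb2 encodes the ligand best known for roles in heart, skeletal and eye development. In GRCm38 it lies at chr1:186622792-186705989 on the minus strand, and an antisense gene, Gm29491, shares exonic bases with it. The strand setting of the counting is not given in the sources used here, so reads of the antisense gene cannot be told apart. Tgfb2 had 4.57, 4.53 and 3.41 CPM in ZEB2 KO libraries, against 10.02, 10.8 and 13.6 CPM in ZEB2 control libraries. All 3 KO libraries were close together and well below every control library. The log2 fold change was -1.46 (SE 0.34, 95% confidence interval -2.21 to -0.71), a level of 0.363 times the control, with an adjusted p of 0.0775 by edgeR and 0.00365 by DESeq2. That edgeR value was the smallest adjusted p in this comparison, but it was a tie shared with other genes, among them Acta2, Fn1 and Fbn1. Tgfb2 ranked 233 by p among 15416 genes. With only the ZEB2 groups in the fit, Tgfb2 had a log2 fold change of -1.45 and an edgeR adjusted p of 0.0388. Tgfb2 had 5.03, 14.3 and 7.23 CPM in ZEB1 KO libraries, against 15.3 and 9.90 CPM in ZEB1 control libraries. ZEB1 KO libraries spanned most of the range seen in the study and overlapped the controls, with a log2 fold change of -0.51 (SE 0.37, edgeR adjusted p = 1.00). Without ZEB1 KO 2 it was -1.04 and without ZEB1 control 2 it was -0.17.

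The 250 bases upstream of the annotated Tgfb2 start and those of the most upstream Tgif1 start in RefSeq are printed below. They were chosen because these 2 of the 10 genes had the largest differences between ZEB2 KO and ZEB2 control muscles, in opposite directions. Sequences are from RefSeq on GRCm38.p6, read 5′ to 3′ on the minus strand, on which both genes lie, with the SMAD half-site CAGAC in capitals. They cover chr1:186705990-186706239 for Tgfb2 and chr17:70853533-70853782 for Tgif1. The last of the Tgif1 bases lie inside the annotated Tgif1 span (chr17:70844205-70853546), so that stretch is not wholly upstream of the gene.
Tgfb2: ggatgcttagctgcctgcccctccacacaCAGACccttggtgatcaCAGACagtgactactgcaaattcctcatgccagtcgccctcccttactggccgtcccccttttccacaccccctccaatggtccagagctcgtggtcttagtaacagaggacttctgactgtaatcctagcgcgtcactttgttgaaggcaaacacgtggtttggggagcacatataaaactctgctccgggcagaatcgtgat
Tgif1: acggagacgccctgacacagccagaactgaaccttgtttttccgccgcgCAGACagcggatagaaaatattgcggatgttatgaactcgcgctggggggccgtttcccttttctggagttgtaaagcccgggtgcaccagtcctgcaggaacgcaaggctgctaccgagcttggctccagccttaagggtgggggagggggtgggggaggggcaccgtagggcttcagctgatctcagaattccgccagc
The half-site occurs 221 and 204 bases before the Tgfb2 start and 201 bases before this Tgif1 start. CAGAC or its reverse complement GTCTG is in 49.6% of all 32851 windows of the same kind (250 bases before to 50 after a start), so its presence sets neither gene apart. The ZEB core motif CACCT or its reverse complement AGGTG, in 51.9% of windows, was found in windows of Tgfb1, Id3 and Tgif1. It was not found in the Tgfb2, Id2 or Smad6 windows. The Id3 window (chr4:136143572-136143871) lies inside the annotated Id3 span (chr4:136143497-136145755). Of the 10 genes, 6 had a window in the RefSeq table, 10 windows in all. Tgfb3, Id1, Smad7 and Bambi had none there.

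Tgfb1, the ligand most closely linked to fibrosis, and Tgfb3 varied less. Tgfb1 (chr7:25687002-25705077, plus strand) had 4.66, 3.80 and 3.69 CPM in ZEB2 KO libraries, against 4.95, 3.67 and 5.76 CPM in ZEB2 control libraries. These ranges overlapped, and the log2 fold change was -0.25 (SE 0.23, edgeR adjusted p = 0.456). Its level was 4.81, 3.32 and 4.06 CPM in ZEB1 KO libraries, against 5.42 and 3.85 CPM in ZEB1 control libraries, again overlapping, with a log2 fold change of -0.19 (SE 0.25, edgeR adjusted p = 1.00). Tgfb3 (chr12:86056745-86079041, minus strand, with antisense genes Gm37804 and Gm48008 overlapping its exons) had 19.2, 21.9 and 21.2 CPM in ZEB2 KO libraries, against 25.5, 23.0 and 27.6 CPM in ZEB2 control libraries. The highest KO library was just under the lowest control library. The log2 fold change was small, -0.29 (SE 0.13, edgeR adjusted p = 0.147). Tgfb3 had 24.9, 23.6 and 21.3 CPM in ZEB1 KO libraries, against 28.1 and 22.8 CPM in ZEB1 control libraries, and the groups overlapped (log2 fold change -0.13, SE 0.15).

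Id1, Id2 and Id3 encode helix-loop-helix proteins without a DNA-binding region, which hold back MyoD-type factors, and they are classical direct targets of BMP-activated SMADs. Id2 (chr12:25093799-25097140, minus strand) was the only one of the 10 genes that was below its controls without overlap in both lines (background 2.16%). It had 2.24, 2.14 and 1.605 CPM in ZEB2 KO libraries, against 3.06, 3.29 and 3.01 CPM in ZEB2 control libraries, a log2 fold change of -0.64 (SE 0.22, adjusted p = 0.0928 by edgeR and 0.0595 by DESeq2). Id2 had 2.27, 2.45 and 1.94 CPM in ZEB1 KO libraries, against 4.27 and 2.97 CPM in ZEB1 control libraries, a log2 fold change of -0.71 (SE 0.24, unadjusted p = 0.0128 and adjusted p = 1.00 by edgeR). The ZEB1 control libraries differed from each other more than the KO libraries did, and the log2 fold change was -0.44 without ZEB1 control 2 and -0.95 without ZEB1 control 3. The effect in ZEB1 KO minus that in ZEB2 KO muscles was -0.063 (95% confidence interval -0.77 to 0.65), an interval that leaves room for differences in either direction. The Id2 and Smad6 windows held the longer SMAD motifs searched, and 30 bases around each are printed to show them, again from the RefSeq table on GRCm38.p6 and on the minus strand, with the motif in capitals (chr12:25096306-25096335 and chr9:64022045-64022074).
Id2: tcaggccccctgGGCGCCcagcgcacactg
Smad6: gccgccaaagtGTCTAGACtggcatatgat
The Id2 motif is the GC-rich SMAD element GGCGCC, 231 bases before the RefSeq start of that window, and this element, its own reverse complement, is in 11.9% of all windows. That RefSeq start and the printed Id2 bases lie inside the Id2 span given above, so the motif is not upstream of the whole gene. The Smad6 motif is the palindrome GTCTAGAC, starting 4 bases before the start, and it is in 0.213% of all windows. It holds no CAGAC or GTCTG, and GGCGCC holds none either.

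Id1 (chr2:152736251-152737410, plus strand) and Id3 (chr4:136143497-136145755, plus strand) were below their controls without overlap in at most 1 line, Id3 in the ZEB2 line and Id1 in neither. Id3 had 13.8, 13.0 and 12.9 CPM in ZEB2 KO libraries, against 15.3, 17.98 and 19.7 CPM in ZEB2 control libraries. The KO libraries were nearly equal and all lower, with a log2 fold change of -0.42 (SE 0.16, edgeR adjusted p = 0.113). Id3 had 12.8, 18.7 and 17.5 CPM in ZEB1 KO libraries, against 16.3 and 13.8 CPM in ZEB1 control libraries, with overlap and a log2 fold change of 0.12 (SE 0.18). Id1 had 6.39, 7.62 and 7.86 CPM in ZEB2 KO libraries, against 6.80, 9.15 and 11.8 CPM in ZEB2 control libraries, with overlap and a log2 fold change of -0.35 (SE 0.26, edgeR adjusted p = 0.354). Id1 had 5.49, 11.1 and 9.08 CPM in ZEB1 KO libraries, against 8.42 and 8.08 CPM in ZEB1 control libraries. The ZEB1 KO libraries lay on both sides of the controls (log2 fold change 0.056, SE 0.29). ZEB1 KO 1 had the lowest level of the 11 libraries for both Id1 and Id3.

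Smad6 and Smad7 encode the inhibitory SMADs, which bind activated receptors, Smad6 mainly on the BMP side and Smad7 on both. Smad6 (chr9:63953076-64022059, minus strand) had 2.33, 1.61 and 1.52 CPM in ZEB2 KO libraries, against 2.50, 2.19 and 3.45 CPM in ZEB2 control libraries. ZEB2 KO 1 overlapped the controls and the other two KO libraries were below them, giving a log2 fold change of -0.58 (SE 0.26, edgeR adjusted p = 0.149). Smad6 had 2.89, 2.61 and 2.61 CPM in ZEB1 KO libraries, against 3.25 and 2.10 CPM in ZEB1 control libraries, with the KO libraries between the controls (log2 fold change 0.013, SE 0.29). Smad7 (chr18:75367529-75395935, plus strand) had 5.49, 5.34 and 5.35 CPM in ZEB2 KO libraries, against 4.55, 6.22 and 5.54 CPM in ZEB2 control libraries. The KO values lay inside the control range, with a log2 fold change of -0.011 (95% confidence interval -0.44 to 0.42). Smad7 had 7.92, 5.47 and 5.43 CPM in ZEB1 KO libraries, against 5.65 and 7.24 CPM in ZEB1 control libraries, also overlapping (log2 fold change -0.039, SE 0.22).

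Tgif1 encodes a homeodomain corepressor that recruits histone deacetylases to SMAD2 and SMAD3, and it was the only one of the 10 genes with a higher level in ZEB2 KO muscles. It lies at chr17:70844205-70853546 on the minus strand. Tgif1 had 29.9, 32.4 and 47.0 CPM in ZEB2 KO libraries, against 16.1, 27.4 and 9.88 CPM in ZEB2 control libraries. Every KO library was above every control library, but ZEB2 control 2 came close to ZEB2 KO 1. The log2 fold change was 1.04 (SE 0.38, 95% confidence interval 0.19 to 1.88), with an adjusted p of 0.106 by edgeR and 0.0376 by DESeq2. It was 1.49 without ZEB2 control 2 and 0.74 without ZEB2 control 3. Tgif1 had 22.1, 18.03 and 16.7 CPM in ZEB1 KO libraries, against 10.7 and 24.7 CPM in ZEB1 control libraries. The ZEB1 control libraries enclosed the KO libraries, and the log2 fold change of 0.098 (SE 0.43) was -0.40 without ZEB1 control 2 and 0.81 without ZEB1 control 3.

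Bambi (chr18:3507923-3516404, plus strand) is itself a target of BMP and TGF-beta signalling. It had 1.37, 1.22 and 1.13 CPM in ZEB2 KO libraries, against 1.61, 1.19 and 1.96 CPM in ZEB2 control libraries, overlapping, with a log2 fold change of -0.36 (SE 0.25, edgeR adjusted p = 0.323). Bambi had 1.20, 1.35 and 1.28 CPM in ZEB1 KO libraries, against 2.17 and 1.64 CPM in ZEB1 control libraries. All ZEB1 KO libraries were below both controls, with a log2 fold change of -0.58 (SE 0.28, edgeR adjusted p = 1.00), which ran from -0.77 without ZEB1 control 3 to -0.38 without ZEB1 control 2.

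**Figure D2:**
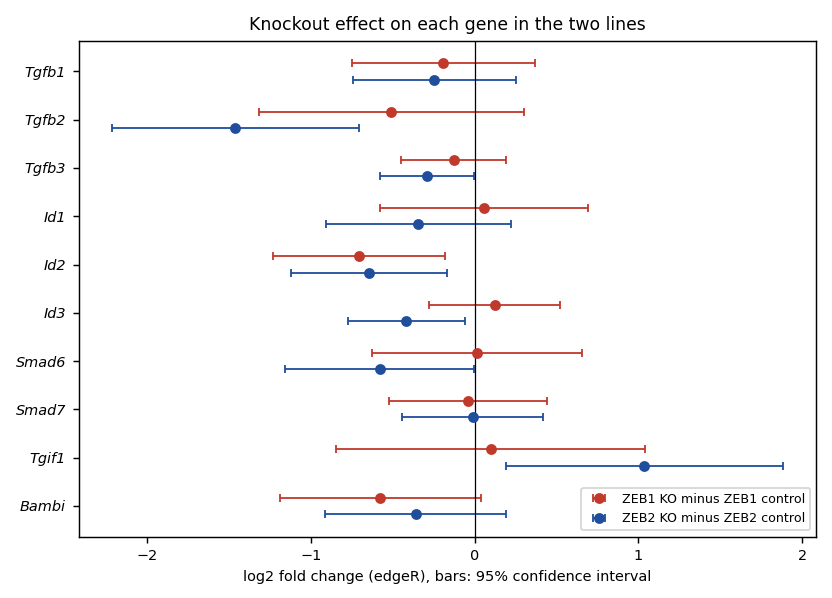
Log2 fold change of each gene (points, x axis) with its 95% confidence interval from edgeR (bars), for ZEB1 KO minus ZEB1 control and ZEB2 KO minus ZEB2 control muscles. In the ZEB2 comparison Tgfb2 (-1.46) and Tgif1 (1.04) lie farthest from 0, and for Id2 the points of both comparisons nearly coincide (-0.71 and -0.64).

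Whether the knockout effects differed between the lines was tested with an interaction contrast, the ZEB1 effect minus the ZEB2 effect. The difference was above 0 for 6 genes (background 54.6%) and below 0 for 4 (background 45.4%). None of the 10 passed by edgeR (background 0%) or DESeq2 (background 0.0904%), and 1 had an unadjusted edgeR p under 0.05 (background 9.26%). That gene was Id3, with a difference of 0.54 (SE 0.25, adjusted p = 0.516 by edgeR). Tgfb2 had a difference of 0.95 (SE 0.50, 95% confidence interval -0.16 to 2.06) and Tgif1 one of -0.94 (SE 0.57, interval -2.19 to 0.32). The intervals are wide, so an effect of Tgfb2 or Tgif1 particular to ZEB2 KO muscles was not shown. This contrast uses the same libraries as both knockout comparisons.

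The Cre-free groups gave the spread between the lines. Between ZEB2 control and ZEB1 control muscles 5 of the 10 genes were higher (background 52.4%) and 5 lower (background 47.6%), and none passed by edgeR (background 0.0195%) or DESeq2 (background 0.076%). None had an unadjusted edgeR p under 0.05 (background 3.32%). None was free of overlap between the groups (background 16.6%), whether higher (background 8.96%) or lower (background 7.66%). The log2 fold changes ran from -0.26 for Bambi to 0.23 for Id3, and Tgif1, with 16.1, 27.4 and 9.88 CPM in ZEB2 control libraries against 10.7 and 24.7 CPM in ZEB1 control libraries, had a similarly wide range in both.

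For 7 of the 10 genes, the level over the 11 libraries was related, by Pearson's r, to that of known genes of the fasting response. The share of all genes related in this way was not computed, so this count does not set the 10 genes apart. Trim63, the muscle ubiquitin ligase MuRF1 and a standard measure of atrophy signalling, was at 5157, 4973 and 7378 CPM in ZEB2 KO libraries, against 2139, 3197 and 956 CPM in ZEB2 control libraries. It was at 4710, 925 and 2854 CPM in ZEB1 KO libraries, against 770 and 4750 CPM in ZEB1 control libraries. Trim63 was thus higher in every ZEB2 KO library than in every ZEB2 control library, and uneven in both ZEB1 groups. All 10 of a list of fasting atrophy genes (ubiquitin ligases, FoxO factors and autophagy genes) were higher in ZEB2 KO than in ZEB2 control muscles without overlap (background 21.3%), with summed levels of 13545 to 19927 CPM against 3572 to 8670 CPM, and none was at 0. The sums were 3898 to 11548 CPM in ZEB1 KO and 3121 to 11620 CPM in ZEB1 control libraries.

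Correlations over the 11 libraries were computed between each gene's log2 CPM and the mean log2 CPM of 7 lists, 70 relations in all, each with a permutation test and Benjamini-Hochberg adjustment over the 70. The permutations shuffled libraries across all groups, so a difference between groups alone can give a small p. All values come from the same libraries and the same scaling. Tgfb2 was most closely related to the atrophy genes, inversely, with Pearson's r of -0.92 (permutation p = 0.00013, adjusted p = 0.00455) and Spearman's rho of -0.97 (permutation p = 2e-05, adjusted p = 0.00140). Without ZEB2 KO 3 and ZEB1 control 2, the libraries farthest from the median of the atrophy genes, r was -0.86, and the correlation of deviations from the group means was -0.89. The relation was thus present within groups as well as between them. Tgif1 was opposite, with r of 0.91 (permutation p = 1e-04, adjusted p = 0.00455) and rho of 0.89 (permutation p = 0.00055, adjusted p = 0.0192), 0.83 without the same libraries and 0.83 for deviations. Id3 had r of -0.83 (permutation p = 0.00211, adjusted p = 0.0211) and rho of -0.79 (permutation p = 0.00534, adjusted p = 0.0384), -0.90 without these libraries and -0.77 for deviations. Smad6 had r of -0.80 (permutation p = 0.00378, adjusted p = 0.0294) and rho of -0.75 (permutation p = 0.0111, adjusted p = 0.0459), and -0.64 without these libraries. Tgfb3 had r of -0.75 (permutation p = 0.00800, adjusted p = 0.0329) and rho of -0.82 (permutation p = 0.00333, adjusted p = 0.0291), and -0.64 without them. These genes and Id3 share the inverse direction of Tgfb2. Bambi had r of -0.74 (permutation p = 0.0101, adjusted p = 0.0395) but its rho of -0.67 missed the threshold (permutation p = 0.0271, adjusted p = 0.0710), and r was -0.54 without them. Id2 had r of -0.71 (permutation p = 0.0137, adjusted p = 0.0416) and rho of -0.79 (permutation p = 0.00565, adjusted p = 0.0384), but r was -0.39 without the same libraries and so rests on them. For deviations from the group means, r was -0.64 for Smad6, -0.52 for Tgfb3, -0.79 for Bambi and -0.62 for Id2. The other 3 genes did not pass with the atrophy genes. Id1 had r of -0.64 (permutation p = 0.0350, adjusted p = 0.0791) and rho of -0.63 (permutation p = 0.0434, adjusted p = 0.0998), and r was -0.81 without the same libraries. Tgfb1 had r of -0.42 (permutation p = 0.192, adjusted p = 0.275) and rho of -0.40 (permutation p = 0.223, adjusted p = 0.297). Smad7 had r of 0.23 (permutation p = 0.508, adjusted p = 0.555) and rho of -0.19 (permutation p = 0.576, adjusted p = 0.630). Id1 and Smad7 passed with none of the 7 lists.

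**Figure D3:**
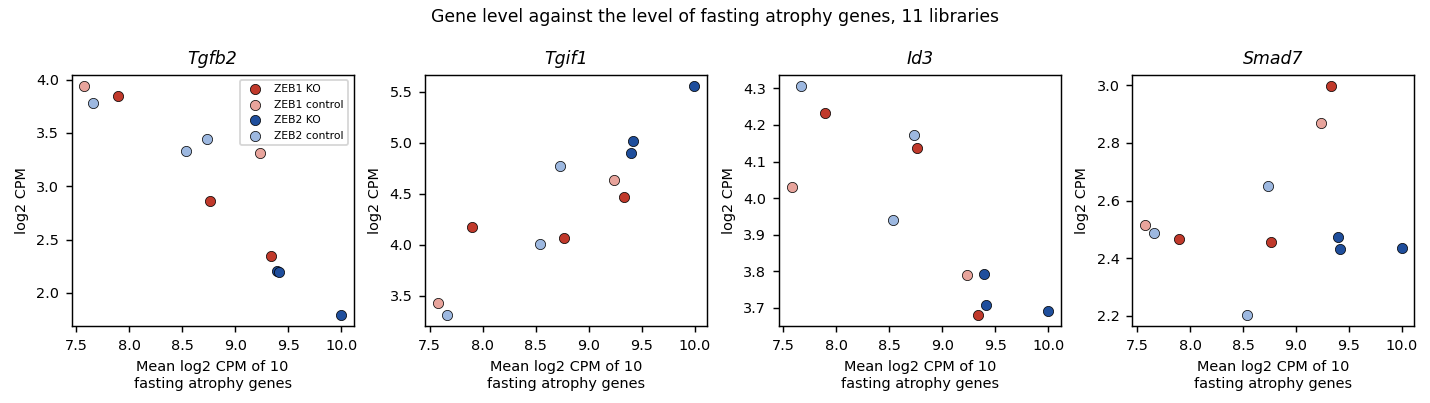
Log2 CPM of Tgfb2, Tgif1, Id3 and Smad7 (y axes) against the mean log2 CPM of 10 fasting atrophy genes (x axes), 1 point per library, coloured by group. Tgfb2 (r = -0.92) and Id3 (r = -0.83) decrease and Tgif1 (r = 0.91) increases along the axis, with ZEB2 KO libraries at its high end, and Smad7 shows no such relation (r = 0.23).

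With the mean level of the atrophy genes as a covariate, a setting chosen after the data were seen and one in which the covariate itself differs between the ZEB2 groups, the ZEB2 KO minus ZEB2 control log2 fold change was -0.67 for Tgfb2 (SE 0.24, edgeR adjusted p = 0.785). For Tgif1 it was 0.24 (SE 0.29, edgeR adjusted p = 0.918), for Id3 -0.13 (SE 0.17) and for Id2 -0.40 (SE 0.26). With the Y-linked level as a covariate, Tgfb2 was at -1.12 (SE 0.36, edgeR adjusted p = 0.418) and Tgif1 at 0.53 (SE 0.33, edgeR adjusted p = 0.543). The signs of these 4 genes stayed the same under the atrophy covariate, as did those of Tgfb2 and Tgif1 under the Y-linked one, with all values nearer to 0. Other signs turned to above 0: those of Id1 (0.069) and Bambi (0.0056) under the atrophy covariate, and that of Tgfb1 (0.032) under the Y-linked one.

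Markers of other cell types moved with the genes too. Between ZEB2 KO and ZEB2 control muscles, 10 of 12 fibroblast markers were lower, with summed levels of 1783 to 1914 CPM against 1785 to 2230 CPM. Of the macrophage markers 11 of 12 were lower (111 to 123 CPM against 135 to 180 CPM), and of the smooth muscle and pericyte markers 10 of 10 (629 to 648 CPM against 787 to 862 CPM). Of the endothelial markers 10 of 12 were lower (652 to 753 CPM against 716 to 863 CPM) and of the satellite cell markers 7 of 8, although their sum was 77.1 to 136 CPM against 64.4 to 83.1 CPM. Myofibre markers were higher for 7 of 10 (144367 to 149181 CPM against 120367 to 128941 CPM). Between ZEB1 KO and ZEB1 control muscles all 12 fibroblast markers were lower, with sums of 1665 to 2275 CPM against 2637 to 2666 CPM. So were 10 of 12 macrophage markers (134 to 205 CPM against 195 to 219 CPM) and 10 of 12 endothelial markers (660 to 767 CPM against 733 to 807 CPM). Satellite cell markers were lower for 6 of 8 and myofibre markers for 6 of 10, both with sums that overlapped. Smooth muscle and pericyte markers were higher for 7 of 10 (704 to 831 CPM against 711 to 778 CPM). In ZEB2 control muscles 10 of 12 fibroblast and 11 of 12 macrophage markers were lower than in ZEB1 control muscles, and the sums of both lists did not overlap between these groups. Endothelial markers were higher there for 8 of 12, smooth muscle and pericyte markers for 8 of 10, satellite cell markers for 5 of 8 and myofibre markers for 6 of 10. The marker values of ZEB1 KO muscles, which went in both directions, stand beside their lower Id2 and Bambi.

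Of the 60 relations between the 10 genes and the 6 lists of cell type markers, 18 had an adjusted p under 0.05 on r, and 11 of these also on rho. The share over all genes was not computed here either. Id2 followed the fibroblast markers over the 11 libraries, with r of 0.90 (permutation p = 0.00025, adjusted p = 0.00583) and rho of 0.85 (permutation p = 0.00188, adjusted p = 0.0263), 0.77 without ZEB2 KO 3 and ZEB1 control 2, and 0.79 for deviations from group means. Tgfb2 was related to the fibroblast markers, with r of 0.83 (permutation p = 0.00068, adjusted p = 0.0119) and rho of 0.85 (permutation p = 0.00177, adjusted p = 0.0263), 0.71 without ZEB2 KO 3 and ZEB1 control 2, and 0.59 for deviations. With the macrophage markers Tgfb2 had r of 0.78 (permutation p = 0.00764, adjusted p = 0.0329) and rho of 0.82 (permutation p = 0.00324, adjusted p = 0.0291), 0.62 without ZEB2 KO 3 and ZEB2 KO 2, and 0.46 for deviations. Tgif1 was inversely related to 5 of the lists, on r most closely to the fibroblast markers, with r of -0.78 (permutation p = 0.00487, adjusted p = 0.0310) and rho of -0.69 (permutation p = 0.0225, adjusted p = 0.0698), but r was -0.50 without ZEB2 KO 3 and ZEB1 control 2 and so rests on them. On rho the endothelial and the smooth muscle and pericyte markers were closer, both at -0.77. The r of Tgif1 was -0.76 with the satellite cell markers (adjusted permutation p = 0.0329 on r and 0.0698 on rho), -0.76 with the smooth muscle and pericyte markers (0.0329 and 0.0384), -0.72 with the macrophage markers (0.0409 and 0.0710) and -0.70 with the endothelial markers (0.0463 and 0.0384). Without the libraries farthest from each list's median, these were -0.44, -0.51, -0.51 and -0.75 in the same order. For deviations from the group means they were -0.76, -0.39, -0.42 and -0.59, and -0.61 with the fibroblast markers. Bambi followed the fibroblast markers with r of 0.80 (permutation p = 0.00247, adjusted p = 0.0216) and rho of 0.77 (permutation p = 0.00762, adjusted p = 0.0384), 0.73 without ZEB2 KO 3 and ZEB1 control 2, and 0.61 for deviations. Tgfb1 followed the endothelial markers, with r of 0.82 (permutation p = 0.00182, adjusted p = 0.0211) and rho of 0.85 (permutation p = 0.00165, adjusted p = 0.0263), 0.92 without ZEB2 control 1 and ZEB2 KO 2, and 0.82 for deviations. The other relations that passed on r were those of Tgfb3 and Smad6 with the fibroblast, macrophage and smooth muscle lists, of Id2 with the macrophage markers and of Id3 with the satellite cell markers, all positive. Those of Smad6 (adjusted permutation p = 0.173, 0.102 and 0.0674) and Id2 (0.0710) did not pass on rho. Without the libraries farthest from each list's median, r was 0.39, 0.45 and 0.50 for Smad6 and 0.54 for Id2. For deviations, r was 0.48, 0.65 and 0.27 for Tgfb3, 0.63, 0.46 and 0.66 for Smad6, 0.56 for Id2 and 0.62 for Id3. The part of cell content in the differences of the 10 genes was not tested.

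Among the 10 genes themselves, 8 of 45 pairs had an adjusted permutation p under 0.05 on r, 4 positive and 4 negative. These permutations also shuffled libraries across groups, and the share among pairs of other genes was not computed. The closest pair was Smad6 with Tgif1, at r of -0.91 (permutation p = 0.0002, adjusted p = 0.00900) and rho of -0.88 (permutation p = 0.00071, adjusted p = 0.0319), and -0.86 without ZEB2 KO 2 and ZEB2 KO 3. Id1 and Id3 were the closest positive pair, at r of 0.84 (permutation p = 0.00097, adjusted p = 0.0218) and rho of 0.85 (permutation p = 0.00162, adjusted p = 0.0364), 0.74 without ZEB1 KO 1 and ZEB2 control 3, and 0.88 for deviations. Tgif1 was in all 4 negative pairs, with Smad6, Bambi (r = -0.81), Tgfb2 (r = -0.80) and Tgfb3 (r = -0.79). For deviations from the group means, r was -0.84, -0.96, -0.53 and -0.59 in the same order. The other positive pairs were Tgfb2 with Id2 (r = 0.82), Tgfb2 with Id3 (r = 0.80) and Id2 with Bambi (r = 0.77), with 0.54, 0.84 and 0.36 for deviations. On rank correlation, the adjusted permutation p was 0.0816 for Tgif1 with Bambi (rho = -0.72) and 0.178 for Id2 with Bambi (rho = 0.56), so these pairs did not pass both ways. Id1 and Id2, which share a family and a known regulator, had r of 0.22 (permutation p = 0.519, adjusted p = 0.649).

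For 4 of the genes, the transcripts most like them over the 11 libraries, by Pearson's r of log2 CPM among 15415 other genes, were as follows. Tgfb2 was most like Cep162, which encodes a centriolar protein (r = 0.98, rho = 1.00), Mvb12b (r = 0.98) and Castor2 (r = 0.98). Smad6 was most like Gm20707, annotated as a lncRNA (r = 0.95), and Pacc1 (r = 0.94). Id1 was most like Rcor2 (r = 0.93), Eif4g2 (r = 0.93) and Fbxl14 (r = 0.91), and Id3 was most like Nudcd1 (r = 0.95), Ncf4 (r = 0.95) and Zbed4 (r = 0.94). These are the highest values of many and are given as a description.

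The rest of the pathway was read from 9 lists holding 96 genes, of which 88 were tested (Bmp10, Gdf2, Gdf6, Gdf7, Grem1, Sost, Msx2 and Dkk1 did not pass the low-count filter). Between ZEB2 KO and ZEB2 control muscles 26 were higher (background 46.6%) and 62 lower (background 53.4%), and the median over the lists was -0.35 (log2 fold change). None passed by edgeR (background 0%) and 15 passed by DESeq2, 3 higher and 12 lower (background 18.6% in either direction). Of the 88, 39 had an unadjusted edgeR p under 0.05, which is 44.3% beside 33.2% of all genes, and 40 did not overlap, which is 45.5% beside 43.4% of all genes. Between ZEB1 KO and ZEB1 control muscles 29 were higher (background 51.2%) and 59 lower (background 48.7%), and the median was -0.13. None passed by edgeR (background 0%) or DESeq2 (background 0.113%), 8 had an unadjusted edgeR p under 0.05, which is 9.09% beside 3.24% of all genes, and 18 did not overlap, which is 20.5% beside 13.9% of all genes.

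**Figure D4:**
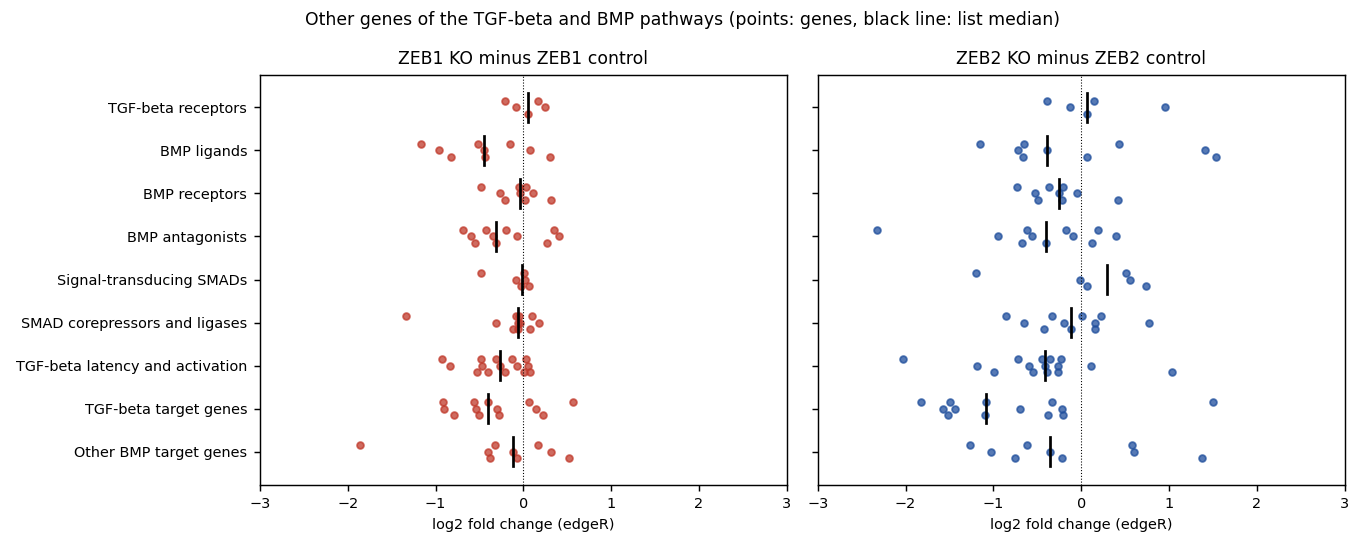
Log2 fold change (x axis) of each tested gene (points) in 9 lists of the TGF-beta and BMP pathways, with the median of each list (black line), in ZEB1 KO minus ZEB1 control (left) and ZEB2 KO minus ZEB2 control muscles (right). TGF-beta target genes have a median of -1.08 on the right and -0.41 on the left, and signal-transducing SMADs one of 0.29 on the right and -0.013 on the left.

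Among BMP ligands, 5 of 9 were lower in ZEB2 KO than in ZEB2 control muscles (median -0.39) and 1 passed by DESeq2 (background 18.6%). That gene was Bmp5, at 2.39 to 2.69 CPM in ZEB2 KO against 3.85 to 4.16 CPM in ZEB2 control libraries (log2 fold change -0.67, SE 0.17, DESeq2 adjusted p = 0.0195). Gdf10 (-0.72) was lower and Gdf5, a BMP ligand known to protect denervated muscle from wasting, was higher (1.54, SE 0.53, edgeR adjusted p = 0.0960) at only 0.537 to 1.10 CPM in ZEB2 KO against 0.188 to 0.322 CPM in ZEB2 control libraries. In the ZEB1 line 7 of 9 were lower (median -0.45), with Bmp7 at -1.16 (SE 0.50), Gdf10 at -0.52 and Bmp4 at -0.45, none of which passed. Bmp7 had 0.617 to 1.09 CPM in ZEB1 KO against 1.78 to 1.91 CPM in ZEB1 control libraries, without overlap. In the ZEB2 line Bmp7 was at -1.16 too (SE 0.47), with overlap, whereas Bmp4 was at 0.43 (SE 0.20), higher without overlap. Bmp4 was also lower in ZEB2 control than in ZEB1 control muscles (-0.69, SE 0.22), and none of these values passed.

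Among extracellular BMP antagonists, 8 of 11 were lower in each comparison, with medians of -0.40 in the ZEB2 and -0.31 in the ZEB1 line. Chrdl1 (-0.95, SE 0.31, DESeq2 adjusted p = 0.0390) passed by DESeq2 in the ZEB2 line, and Twsg1, a modulator of chordin, was at -0.40 (SE 0.13). Nbl1, a DAN-family antagonist, had 15.4 to 20.3 CPM in ZEB1 KO against 28.7 to 29.8 CPM in ZEB1 control libraries, a log2 fold change of -0.69 (SE 0.20, edgeR unadjusted p = 0.00458 and adjusted p = 1.00). Fst, the activin and myostatin binder follistatin, was at -0.60 (SE 0.25) in the same comparison.

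Of the BMP receptors and coreceptors 8 of 9 were lower in ZEB2 KO than in ZEB2 control muscles (median -0.26), among them the type I receptor Acvr1 (-0.73, SE 0.25), Hjv (-0.53) and Rgma (-0.49), and none passed by either tool. In the ZEB1 line 5 of 9 were lower (median -0.039), with Rgma at -0.49. Of 5 TGF-beta receptors 3 were higher in each comparison (medians 0.068 in the ZEB2 and 0.049 in the ZEB1 line), and none passed. In the ZEB2 line the coreceptor Tgfbr3 was at 0.96 (SE 0.41) and endoglin (Eng), which is abundant in endothelium, at -0.39 (SE 0.16).

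The signal-transducing SMADs had 4 of 6 higher in ZEB2 KO than in ZEB2 control muscles, with a median of 0.29. Smad1 had 15.9, 17.4 and 23.7 CPM in ZEB2 KO libraries, against 12.4, 11.8 and 10.01 CPM in ZEB2 control libraries, a log2 fold change of 0.74 (SE 0.23, adjusted p = 0.0863 by edgeR and 0.0307 by DESeq2). Smad4 (0.51) and Smad5 (0.56) were also higher without overlap, whereas the TGF-beta effector Smad3 was at -1.20 (SE 0.46, DESeq2 adjusted p = 0.0431) with overlapping groups. In the ZEB1 line 3 of 6 were higher (median -0.013) and Smad1 was at -0.48 (SE 0.26). Of 11 SMAD corepressors and ubiquitin ligases 6 were lower in ZEB2 KO (median -0.11) and 8 in ZEB1 KO muscles (median -0.062), and none passed. Tgif2, the paralog of Tgif1, was on the lower side in both (-0.86, SE 0.40, and -1.33, SE 0.44, in ZEB2 and ZEB1 KO), at under 1 CPM in every library.

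Genes for storage and release of latent TGF-beta were lower for 13 of 15 in ZEB2 KO muscles (median -0.41) and 11 of 15 in ZEB1 KO muscles (median -0.27). In the ZEB2 line 3 of 15 passed by DESeq2, near the share of all genes (background 18.6%). Fbn1, the microfibril protein fibrillin-1, had 35.6, 36.6 and 17.1 CPM in ZEB2 KO libraries, against 58.4, 60.1 and 85.2 CPM in ZEB2 control libraries (log2 fold change -1.19, SE 0.29, DESeq2 adjusted p = 0.00509). Itgb8, a subunit of an integrin that activates latent TGF-beta, was at -0.995 (SE 0.31, DESeq2 adjusted p = 0.0386). Furin, the protease that cleaves TGF-beta precursors, was higher, with 73.2, 90.1 and 137 CPM in ZEB2 KO libraries, against 51.2, 52.2 and 43.3 CPM in ZEB2 control libraries (1.03, SE 0.28, DESeq2 adjusted p = 0.0108). In the ZEB1 line Itgb8 was at -0.84 (SE 0.34), Ltbp4 at -0.40 and Ltbp1 at -0.27, none passing.

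TGF-beta target genes were lower for 12 of 13 in ZEB2 KO muscles (background 53.4%), with a median of -1.08 beside -0.047 over all genes tested. By DESeq2 6 passed, all lower (background 18.6% in either direction). They were Acta2, Fn1, Loxl2, Col1a1, Col1a2 and Postn. The 1 higher gene had an unadjusted edgeR p under 0.05 (background 33.2% in either direction) and did not overlap (background 21.3%). Of the lower genes, 5 did not overlap (background 22.1%). Acta2 had 35.9, 36.6 and 28.6 CPM in ZEB2 KO libraries, against 54.2, 52.1 and 57.5 CPM in ZEB2 control libraries (log2 fold change -0.70, SE 0.14, DESeq2 adjusted p = 0.00421), and it is also among the smooth muscle markers above. Fn1 had 37.7, 38.0 and 22.9 CPM in ZEB2 KO libraries, against 61.7, 62.7 and 84.6 CPM in ZEB2 control libraries (-1.08, SE 0.26, DESeq2 adjusted p = 0.00657). The 6 genes that passed encode matrix proteins, a matrix-crosslinking enzyme and smooth muscle actin, mostly made by fibroblasts and mural cells. In the same comparison 10 of 12 fibroblast markers were lower, with sums that overlapped between the groups, and 10 of 10 smooth muscle and pericyte markers were lower, with sums that did not. Their part in the lower TGF-beta target genes was not tested. In the ZEB1 line 9 of 13 were lower (median -0.41), with Fn1 at -0.56, Loxl2 at -0.54 and Tgfbi at -0.30, and none passed.

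The other BMP target genes were lower for 6 of 9 in each comparison (medians -0.36 in the ZEB2 and -0.12 in the ZEB1 line) and did not move as one. Atoh8 had 8.96, 6.72 and 7.09 CPM in ZEB2 KO libraries, against 5.63, 3.83 and 5.76 CPM in ZEB2 control libraries (log2 fold change 0.58, SE 0.21, edgeR adjusted p = 0.104). It was higher without overlap in the ZEB1 line too, at 6.72, 4.57 and 6.50 CPM in ZEB1 KO libraries, against 4.04 and 4.27 CPM in ZEB1 control libraries (0.51, SE 0.24). Fbxo30, the ubiquitin ligase MUSA1 that BMP signalling is known to hold down in muscle, was at 1.38 (SE 0.49, adjusted p = 0.101 by edgeR and 0.0229 by DESeq2) in ZEB2 KO muscles. Its level was 51.3, 76.4 and 144 CPM in ZEB2 KO libraries, against 29.0, 53.0 and 22.7 CPM in ZEB2 control libraries, and ZEB2 KO 1 overlapped ZEB2 control 2. Gata3 was at -1.86 (SE 0.67) in the ZEB1 line, on 0.0974 to 0.290 CPM in ZEB1 KO against 0.455 to 1.05 CPM in ZEB1 control libraries.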

How the data were processed

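RNA was extracted from gastrocnemius with Trizol and made into libraries with a stranded poly(A) kit, per the labels' protocols. Values in the deposited table are estimated counts, whole and unscaled, one row per gene, a unit read from the values themselves and from RSEM appearing in the submitters' processing notes. Those notes also list STAR, DESeq2 and GRCm38. Settings, versions and the counted strand were not given there or in the labels. RSEM divides ambiguous reads between similar genes, so near copies and overlapping genes have uncertain counts.

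Groups were taken from the genotype labels. Counts were fitted with edgeR 4.0.16 in R 4.3.3 (TMM scaling, robust quasi-likelihood fit, 4 group means over 11 libraries, low-count filter with a minimum count of 10 and a minimum total of 15). This kept 15416 genes with 99.96% of all counts, and p-values were adjusted over them by Benjamini-Hochberg. Nothing in the sources says whether the pools were prepared on separate days, and p-values rest on the spread between pooled samples. No 2 libraries of a group were alike within sampling noise (chi-square per degree of freedom of 15.5 or more). CPM values are scaled by TMM, FPKM values also by merged exon length from GENCODE M21, and log2 CPM uses a prior count of 2. Permutation tests used 100000 resamples, shuffled libraries across all groups and are two-sided. Gene groups count as not overlapping where every KO library lies beyond every control library. DESeq2 1.42.0, other scalings, filters, covariates, a replicate block and omission of each library were alternatives.

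All 10 genes are named in each comparison. Of each pathway list, up to 3 genes with the smallest p per knockout comparison are named, and those that passed by DESeq2. For Id1, Id3, Smad6 and Tgfb2 the 3 most alike genes are named. Some genes that these rules pick are not reported here. The genes, lists and rules were chosen with earlier results of these data known.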

Additional observations from a re-analysis of the deposited data

How the results depend on the processing

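No gene passed by edgeR in either knockout comparison or in the difference of effects, and 3 passed between the control groups. DESeq2 called 21 genes in ZEB1, 2532 in ZEB2, 15 for the difference and 16 between controls. Without a low-count filter edgeR called 6, 348, 2 and 7 in the same order, and with only the ZEB2 groups fitted 2077 in ZEB2. RLE scaling called 5 between controls, and the atrophy covariate, chosen after seeing the data, called 3 in ZEB1. With 1 library left out the counts ran from 0 to 5 in ZEB1, 0 to 0 in ZEB2, 0 to 3 for the difference and 1 to 4 between controls. Of the 10 genes, Tgfb2 passed in ZEB2 by DESeq2 and with only the ZEB2 groups, and Tgif1 by DESeq2. The cause was not tested. Upper-quartile scaling put the median of all genes at -0.18 in ZEB2 and 0.16 for the difference, beside -0.047 and 0.060.

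The sign of a log2 fold change turned in 8 of 150 alternatives in ZEB2, 14 of 140 in ZEB1, 16 of 180 for the difference and 23 of 130 between controls, all for values that did not pass. In ZEB2, Smad7 was at 0.023 by DESeq2 and 0.020 by RLE, Tgfb1 at 0.032 with the Y-linked covariate, and Id1 at 0.069 and Bambi at 0.0056 with the atrophy covariate. In ZEB1, Smad6 was at -0.031 with upper-quartile scaling and -0.027 with the stricter filter. For the difference, upper-quartile scaling gave Id2 0.021 and Smad7 0.073, and the Y-linked covariate gave Tgfb1 -0.22. Between controls, Tgif1 was at -0.0062 by DESeq2, -0.0076 by RLE, -0.0024 without filter, -0.039 with the stricter filter, -0.022 with only these groups and -0.16 with the Y-linked covariate. Tgfb3 was at 0.0049 without filter and 0.032 with the Y-linked covariate, and Smad6 at -0.013 with the stricter filter.

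With 1 library left out, Smad7 ran from -0.12 to 0.095 in ZEB2. In ZEB1, Tgfb1 ran from -0.43 to 0.057, Tgfb3 from -0.28 to 0.014, Id1 from -0.18 to 0.28, Id3 from -0.00026 to 0.26, Smad6 from -0.28 to 0.35, Smad7 from -0.25 to 0.14 and Tgif1 from -0.40 to 0.81. For the difference, Tgfb1 ran from -0.20 to 0.28, Tgfb3 from -0.013 to 0.28, Id2 from -0.33 to 0.19 and Smad7 from -0.26 to 0.13. Between controls, Tgfb1 ran from -0.19 to 0.30, Tgfb2 from -0.42 to 0.19, Tgfb3 from -0.16 to 0.13, Id1 from -0.048 to 0.35, Id2 from -0.46 to 0.048, Smad6 from -0.27 to 0.35 and Tgif1 from -0.50 to 0.71. Where an omission left the ZEB1 control group with 1 library, that library was assumed to vary like the other groups.

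In ZEB2 the replicate numbers showed no clear pairing: deviations of same-numbered libraries correlated at 0.20, -0.027 and -0.31, and only KO 1 was most like the control of its own number. In ZEB1 they correlated at 0.46 and 0.17. The deviations of the ZEB1 control libraries mirror each other, so pairing cannot be judged there. A fit with the replicate number as a block called 0 genes in ZEB1, 0 in ZEB2, 0 for the difference and 1 between controls. Under the block Smad6 was at -0.051 in ZEB1, Tgfb1 at -0.052 for the difference, and Tgfb1 at -0.051, Tgfb2 at 0.039 and Smad6 at -0.035 between controls. Depth limits Bambi most, at 37 counts in its lowest library.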
